A study of Mus musculus with 3 samples.

Results

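The basement membrane genes described here are 10 components of the thin extracellular sheet that underlies epithelia: the laminin chain genes Lama1, Lama5, Lamb1 and Lamc1, the collagen IV chain genes Col4a1 and Col4a2, the nidogen genes Nid1 and Nid2, the perlecan gene Hspg2 and the matrix glycoprotein gene Sparc. They were chosen by name, as the probes that the array's probe-to-gene table assigns to these symbols, and not by their measured values. The table assigned 10 of 25697 probes to 9 of the 10 genes. Sparc had 2 probes and the other genes 1 each. No probe carried the symbol Lama5, so its expression was not measured here. Of these 9 genes, 8 were detected on at least 1 array at a detection p-value under 0.01, and the exception was Lamb1.

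Expression was measured on Illumina bead arrays in 3 mouse cultures, 1 array each. E3 epiblast stem cells, a line of hybrid background, represent the epithelium that forms the embryo after implantation and grew on inactivated CF1 mouse embryonic fibroblasts in KSR medium with 5 ng/ml FGF2. E3R cells are the same line reverted to an embryonic stem cell-like state, and CGR8 is an established embryonic stem cell line. Both of these grew on gelatin in KSR medium with 1 µM PD0325901, an inhibitor of MEK, 3 µM CHIR99021, an inhibitor of GSK3, and 1000 U of LIF. Epiblast cells were removed with collagenase IV, with little carry-over of feeders per the labels, and the other cultures were collected on their dishes. Line, medium, substrate and harvest therefore differ together between epiblast and CGR8 cells, and medium, substrate and harvest between E3 and E3R, so their effects cannot be told apart. E3R and CGR8 cells are different lines, so an effect of line cannot be told apart from one of reversion. Each line is 1 culture on 1 array, so no test across samples exists and no p-value for a difference is given. The bead standard error (SE) given with a value is the spread over the beads of that probe, carried to the log2 scale for differences, and leaves out variation between cultures.

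A basement membrane is built from a laminin network and a collagen IV network. A laminin is a trimer of 1 α, 1 β and 1 γ chain. The trimer of the products of Lama1, Lamb1 and Lamc1 is the chief laminin of the early embryo, and is made by the epiblast and in quantity by extraembryonic endoderm. Collagen IV protomers of the Col4a1 and Col4a2 chains add tensile strength, and nidogens and perlecan link both networks. In the embryo, contact with laminin polarises the epiblast into an epithelium.

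The genes Col4a1 and Col4a2 lie head to head on chromosome 8, and their annotated starts are shown because both genes had the same order of cultures in these data. In RefSeq annotation of GRCm38.p6, Col4a1 runs on the minus strand and Col4a2 on the plus strand. The 22 bases at chr8:11312805-11312826 reach from the start of Col4a2 to the start of Col4a1. These bases lie downstream of both starts, so they are an overlap of the annotated 5′ ends and not a gap between the genes. They are printed 5′ to 3′ on the strand of each gene, with capitals for the bases at both starts.
Col4a1: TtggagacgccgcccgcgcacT
Col4a2: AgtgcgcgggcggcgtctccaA
The promoters of Nid1 and Hspg2 are shown as those of a gene detected in reverted and CGR8 cells alone and of a gene detected in all cultures. Each is the 250 bases before the annotated start, chr13:13437352-13437601 and chr4:137468553-137468802, both on the plus strand of GRCm38.p6. Capitals mark the motifs searched on both strands, which were the GC box in the form GGGCGG, the CCAAT box and the TATA box in the form TATAAA. None of these motifs overlapped another in these windows.
Nid1: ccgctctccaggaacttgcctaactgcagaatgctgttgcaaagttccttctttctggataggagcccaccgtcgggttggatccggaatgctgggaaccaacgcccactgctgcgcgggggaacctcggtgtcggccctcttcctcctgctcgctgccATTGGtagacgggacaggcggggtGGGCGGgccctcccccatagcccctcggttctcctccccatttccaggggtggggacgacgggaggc
Hspg2: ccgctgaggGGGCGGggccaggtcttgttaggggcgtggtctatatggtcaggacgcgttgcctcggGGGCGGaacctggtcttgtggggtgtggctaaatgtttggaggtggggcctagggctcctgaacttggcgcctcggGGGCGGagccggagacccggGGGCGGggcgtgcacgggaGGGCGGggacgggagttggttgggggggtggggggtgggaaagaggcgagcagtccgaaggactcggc
The Nid1 window held 1 GC box and 1 CCAAT box, on the opposite strand, and the Hspg2 window held 5 GC boxes. RefSeq windows were available for 7 of the 10 members, and Lama1, Lamc1 and Nid2 were not among them. The 7 include Lama5, which had no probe, and Lamb1, which was detected on no array. A GC box was found in 5 of these 7 windows, against 32.7% of 32851 promoter windows of the same length. CCAAT was found in 4 of 7, against 33.8%, and TATAAA in 0 of 7, against 12.4%. GC content of the 7 windows ran from 54.0% for Sparc to 74.4% for Col4a1, with a median of 52.4% over all windows. These are matches of letters and say nothing of binding.

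All 8 detected members had their highest normalized signal in CGR8 cells. Over all 6975 genes detected on at least 2 arrays the CGR8 array was the highest for 30.7%. Reverted cells then lay above unreverted epiblast cells for some members and below them for others. Whether the side goes with the kind of component was not tested. The laminin genes Lama1 and Lamc1, both nidogen genes and Hspg2, 5 members in all, ran from CGR8 through reverted to epiblast cells, an order found for 23.6% of all genes. Col4a1, Col4a2 and Sparc ran from CGR8 through epiblast to reverted cells, an order found for 7.08% of all genes, but for Sparc this rests on 1 of its 2 probes. These orders are of single arrays, and steps within the bead error are named below.

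**Figure D1:**
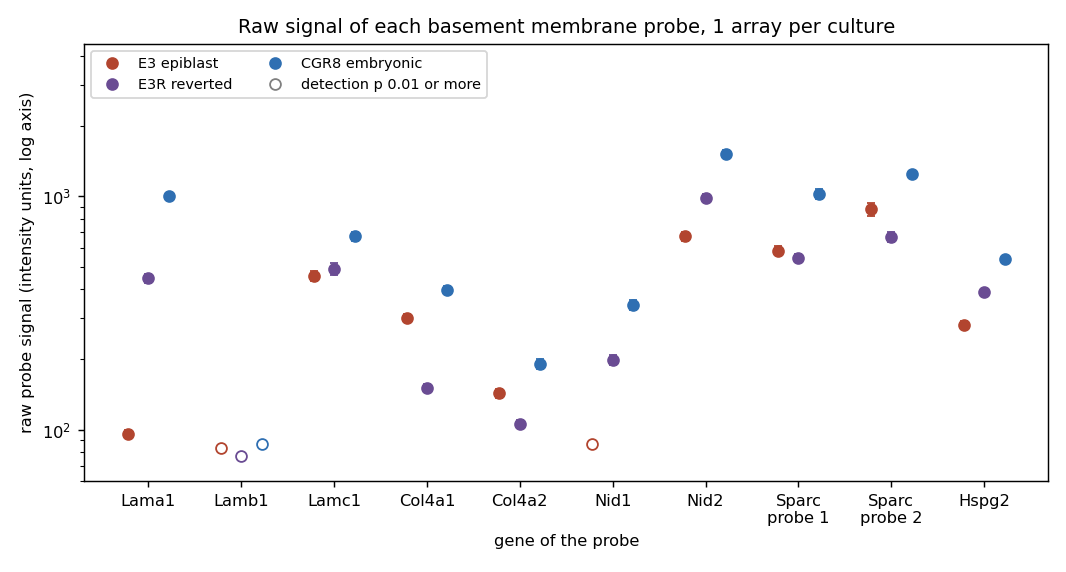
Raw signal (intensity units, log axis) of the 10 basement membrane probes on the arrays of E3 epiblast, E3R reverted and CGR8 embryonic stem cells; bars are the standard error over beads, often smaller than the point, and open points had a detection p-value of 0.01 or more. Lama1 and Nid1 stand near background in epiblast cells (96.1 and 86.8) and far above it in the other cultures, whereas Col4a1 and Col4a2 are lowest in reverted cells (150.5 and 106.1).

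Lama1, on chromosome 17, encodes the laminin α1 chain. Its raw signal was 96.1 (bead SE 3.44) in epiblast, 444.9 (bead SE 18.1) in reverted and 999.8 (bead SE 27.6) in CGR8 cells. The epiblast signal was barely above background, with a detection p-value of 0.00627, and the 3 cultures were widely separated. After background correction and normalization, Lama1 was 14.6-fold higher in reverted than in epiblast cells (log2 difference 3.87, bead SE 0.16). This fold depends on how the near-background epiblast signal is treated: the log2 difference was 2.38 if background was not corrected, 2.88 at an offset of 50 and 4.86 in the authors' processed values. Reverted cells stayed below CGR8 cells by 1.97-fold (log2 difference −0.98, bead SE 0.08), so that on the log2 scale they lay 79.8% of the way from the epiblast to the CGR8 level.

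Lamc1, on chromosome 1, encodes the γ1 chain that most laminins share. The raw signal of its probe was 454.8 (bead SE 21.5) in epiblast, 488.0 (bead SE 27.5) in reverted and 675.8 (bead SE 30.5) in CGR8 cells. The cultures lay close together, in contrast to Lama1. Normalized signals were 1.28-fold higher in reverted than in epiblast cells (log2 0.36, bead SE 0.12), and 1.15-fold lower in reverted than in CGR8 cells (log2 −0.20, bead SE 0.12). The latter step is less than 2 bead SE.

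The probe of Lamb1, on chromosome 12, which encodes the β1 chain, gave raw signals of 83.0, 77.3 and 86.9 in epiblast, reverted and CGR8 cells. Its detection p-values were 0.406, 0.590 and 0.302. The signal was within the negative controls on every array, so no difference was computed, and this single probe says nothing about how much of the transcript was present.

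Col4a1, on chromosome 8, encodes the α1 chain of collagen IV. Its raw signal was 300.3 (bead SE 11.7) in epiblast, 150.5 (bead SE 5.71) in reverted and 396.0 (bead SE 16.2) in CGR8 cells. Reverted cells had the lowest level and both references lay close to each other, differing by 1.33-fold (log2 −0.41 for epiblast minus CGR8, bead SE 0.10). Col4a1 was 2.34-fold lower in reverted than in epiblast cells (log2 −1.22, bead SE 0.12), but only −0.84 if background was not corrected and −0.99 if the offset was 50, both short of 2-fold. Against CGR8 cells it was 3.10-fold lower (log2 −1.63, bead SE 0.12).

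Col4a2 encodes the α2 chain, which joins α1 chains in the common collagen IV trimer. Raw signals of Col4a2 were 143.1 (bead SE 6.47) in epiblast, 106.1 (bead SE 4.23) in reverted and 191.3 (bead SE 8.69) in CGR8 cells. The order of the cultures was that of Col4a1, with reverted cells again the lowest. Col4a2 was 1.57-fold lower in reverted than in epiblast cells (log2 −0.65, bead SE 0.19) and 2.43-fold lower than in CGR8 cells (log2 −1.28, bead SE 0.18). The latter difference was −0.67 with no correction of background and −0.87 at an offset of 50, thus short of 2-fold.

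Nid1, on chromosome 13, encodes nidogen-1, which binds the laminin γ1 chain. Raw signals of Nid1 were 86.8 (bead SE 2.11) in epiblast, 198.8 (bead SE 9.38) in reverted and 343.0 (bead SE 17.8) in CGR8 cells. The epiblast value was not distinguishable from negative controls (detection p-value 0.125), and both other cultures were clearly above them. Nid1 was at least 5.21-fold higher in reverted than in epiblast cells (log2 at least 2.38; 1.19 if background was not corrected, 1.56 if the offset was 50 and 3.35 in the authors' processed values). It was 1.67-fold lower in reverted than in CGR8 cells (log2 −0.74, bead SE 0.13).

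Nid2, on chromosome 14, encodes the related nidogen-2. Its raw signal was 672.9 (bead SE 27.2) in epiblast, 982.6 (bead SE 40.6) in reverted and 1525.2 (bead SE 56.7) in CGR8 cells. Unlike Nid1 it was well above background in epiblast cells. Nid2 was 1.75-fold higher in reverted than in epiblast cells (log2 0.81, bead SE 0.09) and 1.30-fold lower than in CGR8 cells (log2 −0.38, bead SE 0.09). It lay 68.2% of the way between both references.

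Hspg2, on chromosome 4, encodes perlecan, a heparan sulfate proteoglycan. Raw signals of Hspg2 were 280.2 (bead SE 11.5) in epiblast, 387.8 (bead SE 12.8) in reverted and 536.9 (bead SE 20.2) in CGR8 cells. The cultures were ordered as for Nid2. Hspg2 was 1.78-fold higher in reverted than in epiblast cells (log2 0.83, bead SE 0.10) and 1.17-fold lower than in CGR8 cells (log2 −0.22, bead SE 0.09), at 78.8% of the way.

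Sparc, on chromosome 11, encodes a collagen-binding glycoprotein known for its abundance in parietal endoderm. The brighter of its 2 probes had a raw signal of 880.5 (bead SE 55.4) in epiblast, 667.7 (bead SE 32.3) in reverted and 1241.7 (bead SE 39.8) in CGR8 cells. The dimmer probe had 583.7 (bead SE 26.1), 545.2 (bead SE 23.0) and 1022.9 (bead SE 49.1) in the same order. On both probes CGR8 cells were the highest and the E3 and E3R cultures were close to each other. After normalization the probes differed in sign between reverted and epiblast cells, at log2 −0.26 (bead SE 0.12) for the brighter and 0.12 (bead SE 0.10) for the dimmer probe. The step of the dimmer probe is less than 2 bead SE. Against CGR8 cells both probes gave nearly the same value in reverted cells, log2 −0.68 on each (bead SE 0.09 and 0.10), or 1.60-fold lower. In epiblast cells they were lower than in CGR8 cells by 1.34-fold on the brighter and 1.74-fold on the dimmer probe.

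Taking one probe for each gene, the one with the brightest mean signal, the reverted and epiblast cultures were compared first, to ask what differed after reversion. Of 8 members with a value, Lama1 and Nid1 exceeded 2-fold upward in reverted cells, as did 12.7% of 7726 genes, and Col4a1 exceeded 2-fold downward, as did 12.4% of genes. The other 5 were within 2-fold. Col4a1 was within 2-fold too without background correction and at an offset of 50, as given above. The median log2 difference of the members was 0.58, against −0.02 over all genes, and 0.36 if only genes detected on both arrays were taken, which leaves out Nid1.

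Between reverted and CGR8 cells, which shared a medium but are different lines, all 8 members were lower in reverted cells. Both collagen IV genes exceeded 2-fold downward, beside 1.54% of 7286 genes, and 0 members upward, beside 1.81%. Col4a1 alone did so if background was not corrected, beside 0.508% of genes, if the offset was 50, beside 0.755%, and at 3-fold, beside 0.329%. Lama1 lay just within the 2-fold line. The median of the members was −0.71, against 0.01 over all genes, and the values ran from −1.63 for Col4a1 to −0.20 for Lamc1.

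Between epiblast and CGR8 cells, again all 8 members were lower in the first. Lama1 was 28.9-fold lower (log2 −4.85, bead SE 0.15), Nid1 at least 8.68-fold, Nid2 2.28-fold and Hspg2 2.08-fold lower, where 13.4% of 7698 genes exceeded 2-fold downward. No member exceeded it upward, beside 13.9% of genes. Without background correction Lama1 was at −3.27 and Nid1 at −1.74, still past 2-fold. Hspg2 was short of 2-fold if background was not corrected (log2 −0.86) or the offset was 50 (−0.95). At 3-fold only Lama1 and Nid1 counted as lower, beside 6.07% of genes. The median of the members was −0.84, against 0.01 over all genes, and −0.63 over the members detected on both arrays. The 3 comparisons share arrays: a deviation of the CGR8 array would lower the members in both comparisons that use it, and the same holds for the others.

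**Figure D2:**
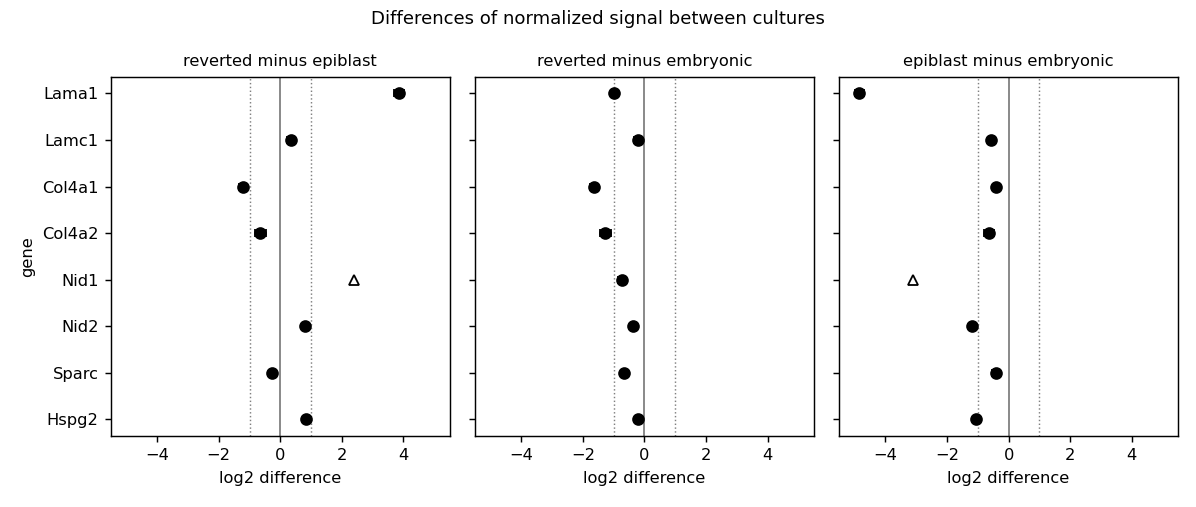
Log2 differences of normalized signal for the 8 detected members in 3 comparisons; bars are the bead standard error, mostly smaller than the point, open triangles are bounds ("at least") and dotted lines mark 2-fold. In the panel of reverted minus epiblast cells the members spread to both sides, from −1.22 for Col4a1 to 3.87 for Lama1, and in the panels against embryonic stem cells all lie below 0.

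By the distance between mean-centred log2 signals over the 3 arrays, the genes most like Lama1 among 6098 others detected on all arrays were Mreg (distance 0.36), Lgals3 (0.36), Liph (0.38), Acss1 (0.48) and Fbxo15 (0.51). Their signals were lowest in epiblast cells and highest in CGR8 cells, as for Lama1. Nearest to Col4a1 were Ndrg1 (distance 0.19), Gm3696 (0.19), Prnp (0.21), Stard4 (0.22) and Rccd1 (0.27), all lowest in reverted cells. With 3 arrays such likeness is a weak description.

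Other basement membrane genes were counted from a list of 30, with further laminin and collagen IV chains and minor components. On the array were 25 of them, and 16 were detected on no array. Undetected genes included Lama2, Lama4, Lamb3, Lamc3, Col4a3, Col4a4, Col4a5 and Col4a6. Of 7 with a value between reverted and epiblast cells, 2 exceeded 2-fold upward, beside 12.7% of all genes, and 0 downward, beside 12.4%. The median of the 7 was 0.89. Smoc1, which encodes a Sparc-related calcium-binding protein, had raw signals of 109.6 in epiblast, 309.9 in reverted and 283.8 in CGR8 cells. It was 6.67-fold higher in reverted than in epiblast cells (log2 2.74, bead SE 0.17; 1.68 without background correction). Agrn, which encodes the proteoglycan agrin, had raw signals of 1132.3, 3792.4 and 3613.0 and was 4.13-fold higher (log2 2.05, bead SE 0.08). Col18a1, for collagen XVIII, was 1.91-fold and the fibulin gene Fbln1 1.85-fold higher. Between reverted and CGR8 cells 7 of 7 were within 2-fold, and only 3.35% of all 7286 genes were past it. The median of these 7 was −0.06 (0.05 under scaling to a common median). Agrn, Smoc1 and Col18a1 were above CGR8 cells in reverted cells, at log2 0.33, 0.49 and 0.72. The other 4 were below, Tinagl1 at −0.83, Fbln1 at −0.59, Lamb2 at −0.29 and Npnt, a bound, at −0.06.

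Receptors for the basement membrane were mixed. Of 25 listed genes, 24 were on the array and 16 had a value between reverted and epiblast cells. Of the 16, 2 were past 2-fold upward and 3 downward, beside 12.7% and 12.4% of all genes, and the median was 0.08. The dystroglycan gene Dag1, a receptor for laminin α chains, had raw signals of 226.5 in epiblast, 739.7 in reverted and 1067.8 in CGR8 cells and was 4.83-fold higher in reverted than in epiblast cells (log2 2.27, bead SE 0.11). For Itgb4, the gene of the laminin-binding integrin β4, reverted cells were at least 8.19-fold above epiblast cells (log2 at least 3.03; 1.68 without background correction). Ilk, which encodes the integrin-linked kinase, was 2.77-fold lower, and the collagen receptor gene Ddr1 at least 2.65-fold lower (log2 −0.63 without background correction). The integrin α3 gene Itga3, named after its value was seen, was 2.47-fold lower (log2 −1.30, bead SE 0.14), but within 2-fold without background correction (−0.77) and at an offset of 50 (−0.96). Under either setting 1 receptor gene, Ilk, stayed past 2-fold downward. Between reverted and CGR8 cells 14 of 15 were within 2-fold, beside only 3.35% of all genes past it, and the median was 0.03. The exception, the syndecan gene Sdc2, was at least 2.18-fold above CGR8 cells (log2 0.49 without background correction).

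Genes for folding and secreting collagen did not share one direction either. Of 25 listed, 23 were on the array and 17 had a value between reverted and epiblast cells. Of the 17, 4 were past 2-fold upward and 1 downward, beside 12.7% and 12.4% of all genes. The median was −0.02 (0.06 under scaling to a common median). Crtap, a subunit of the prolyl 3-hydroxylase complex, was 5.45-fold higher (log2 2.45, bead SE 0.12), with raw signals of 230.4, 844.8 and 883.7 in epiblast, reverted and CGR8 cells. Its partner gene P3h1 was 2.80-fold higher, the lysyl hydroxylase gene Plod3 2.69-fold and the COPII coat gene Sec23a 2.14-fold higher, of which P3h1 and Sec23a were under 2-fold without background correction (log2 0.79 and 0.71). The gene past 2-fold downward, named after its value was seen, was the lysyl oxidase-like gene Loxl2, 2.10-fold lower (log2 −1.07; −0.50 without background correction). Against CGR8 cells 14 of 15 were within 2-fold, beside only 3.35% of all genes past it, and the median was −0.30. P4ha2, a prolyl 4-hydroxylase subunit gene, was 2.29-fold lower in reverted cells (log2 −1.19, and −0.67 without background correction).

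**Figure D3:**
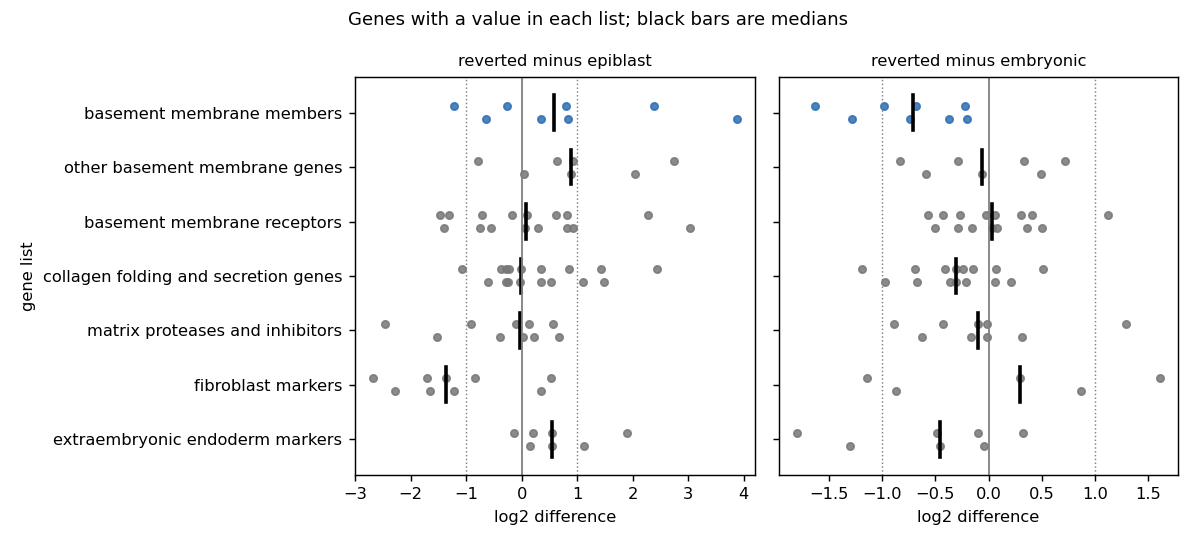
Log2 differences of reverted minus epiblast (left) and reverted minus embryonic stem cells (right); each point is a gene with a value, bounds included, blue for the basement membrane members, and black bars are medians. Member medians are 0.58 and −0.71, fibroblast marker medians −1.36 and 0.29, and extraembryonic endoderm marker medians 0.54 and −0.46.

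Fibroblasts, used as feeders for epiblast cells only, and extraembryonic endoderm also make these components, so their markers are given beside the members. Of 27 fibroblast markers, 25 were on the array. In epiblast cells 11 of these were detected, in reverted cells 5 and in CGR8 cells 3. Summed normalized signals over all 25, with undetected markers included at their near-background values, were 2720, 1188 and 1548. Ccn2, which encodes a matricellular growth factor, alone held 50.5%, 37.1% and 51.9% of these sums, and without it they were 1346, 748 and 744. Between reverted and epiblast cells 6 of 9 with a value exceeded 2-fold downward, beside 12.4% of all genes, and 0 upward, beside 12.7%. The median was −1.36, the value of Dcn, which is a bound. Without background correction 3 of the 9 exceeded 2-fold downward, beside 6.08% of all genes, with a median of −0.71. At an offset of 50 the count was 4, beside 8% of all genes, and the median −0.89. Thy1 had raw signals of 285.9, 87.0 and 86.7 and Dcn of 155.4, 77.9 and 82.1, both detected in epiblast cells alone. Col5a1, for a collagen V chain, ran the other way, with raw signals of 139.6, 154.7 and 311.8 and the highest in CGR8 cells. The fibrillar collagen genes Col1a1 and Col1a2, which fibroblasts express strongly, were not detected on any array. Col4a1 and Col4a2 thus lay on the same side as the median fibroblast marker between reverted and epiblast cells. They lay on the other side between epiblast and CGR8 cells. The marker median there was 1.32, again the bound of Dcn, and 0.73 without background correction. The part of feeders in the collagen IV values was not tested.

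Of 24 extraembryonic endoderm markers other than the members, 22 were on the array, and 6 were detected on each array. Summed normalized signals over all 22, with undetected markers included at their near-background values, were 1051 in epiblast, 1352 in reverted and 2088 in CGR8 cells. Lgmn, a lysosomal protease gene, held 49.6%, 43.0% and 39.0% of these sums. Gata6, a transcription factor gene of primitive endoderm, had raw signals of 120.5, 239.1 and 601.3 and was 3.73-fold higher in reverted than in epiblast cells (log2 1.90; 1.14 without background correction) and 2.47-fold lower than in CGR8 cells (log2 −1.31, bead SE 0.10). The adaptor gene Dab2 had raw signals of 102.3, 132.1 and 358.1 and was 3.49-fold lower in reverted than in CGR8 cells. The defining markers Gata4, Sox7 and Sox17 were detected on no array. Between reverted and CGR8 cells 2 of 7 with a value exceeded 2-fold downward, beside 1.54% of all genes, and 0 upward, beside 1.81%. The median was −0.46. Between reverted and epiblast cells 2 of 7 exceeded 2-fold upward, beside 12.7% of all genes. These were Gata6 and Dab2, the latter at log2 1.12 and 0.49 without background correction. The other 5 were within 2-fold, with Amn at log2 0.54, Lgmn at 0.16 and, as bounds, Hnf4a at 0.56, Pth1r at 0.21 and Apoa1 at −0.13. The median of the 7 was 0.54, and 0.19 without background correction. In this comparison Gata6 and Dab2 thus lay on the same side as Lama1, Lamc1, both nidogen genes and Hspg2. Col4a1, Col4a2 and the brighter Sparc probe lay on the other side. The part of endoderm cells in the member values was not tested. In bulk RNA, a change in the share of a cell type and a change in RNA per cell cannot be told apart.

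The cultures were checked against 14 markers of their labelled state. Between reverted and epiblast cells 6 of 13 with a value exceeded 2-fold upward and 5 downward, beside 12.7% and 12.4% of all genes. Of 12 with a value between reverted and CGR8 cells, 10 were within 2-fold and 2 past it upward, beside 1.81% of all genes. These 2 were Dppa3, 3.46-fold, and Lefty1, 2.05-fold higher in reverted cells (log2 1.06 and 0.80 without background correction). Esrrb, of naive pluripotency, was 86.5-fold higher and the epiblast claudin gene Cldn6 20.8-fold lower in reverted than in epiblast cells. Their log2 differences were 6.44 and −4.38, and 5.10 and −3.60 without background correction. Nr0b1, likewise of naive pluripotency, was detected on no array. On the whole, 38.4% to 42.0% of the 25697 probes were detected on an array, and the median bead SE of a detected probe on the log2 scale was 0.09 to 0.10.

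**Figure D4:**
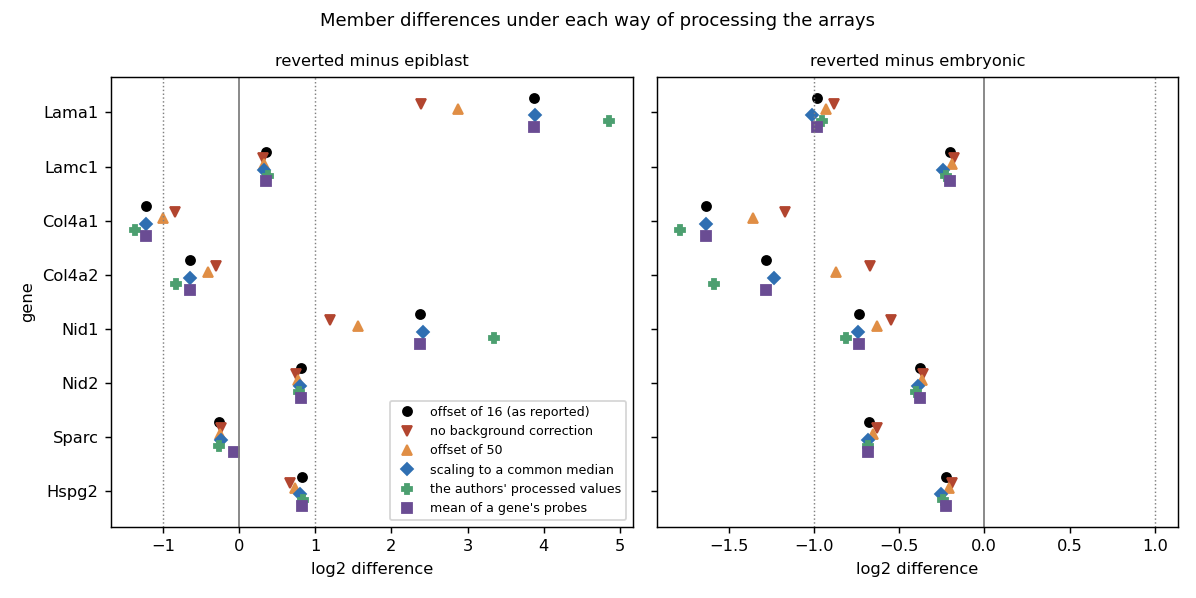
Log2 differences of the 8 detected members, reverted minus epiblast (left) and reverted minus embryonic stem cells (right), under 6 ways of processing the arrays; dotted lines mark 2-fold. No point crosses 0. The dimmer Sparc probe taken alone, not shown, is above 0 for reverted minus epiblast cells, but by less than 2 bead standard errors. Lama1 between reverted and epiblast cells ranges from 2.38 to 4.86 and Col4a2 against embryonic stem cells from −1.58 to −0.67.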

How the data were processed

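RNA of 3 cultures was measured, 1 array each; the label for amplification gives an input of 400 ng and a transcription of 12 h, with Cy3 as dye. The authors deposited, per probe, a raw signal intensity with its bead standard error and a detection p-value; the submitters' processing notes name BeadStudio without a version. A second deposited table holds the authors' processed intensities, normalized in a way not stated in the sources used here; it served as an alternative, with missing values set to its lowest value, 8.

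Raw intensities were normalized with limma 3.58.1 (R 4.3.3) neqc, with an offset of 16, background from the detection p-values and quantile normalization, to log2 values, and checked on simulated data. The bead standard error was carried through this mapping. Later steps used Python 3.11.15, pandas 2.3.3 and matplotlib 3.10.9. Of 25697 probes, 23978 had 1 gene symbol, none had several and the rest had none; symbols were updated by gene identifier for 23962, giving 16593 genes. A gene takes its probe with the highest mean signal. Detection is a p-value under 0.01. An undetected side enters at its array's lowest detected signal (log2 4.87, 5.06 and 5.10 for epiblast, reverted and CGR8), or its own if higher, and the difference is written "at least". Genes count as different at 2-fold. Precision is limited by the number of arrays.

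Members were taken by gene symbol and not by measured values, but members and lists alike were chosen with earlier results of these data known. Counts set beside the shares of all genes are therefore descriptions and not tests. Every member and probe is named; from each list, up to 4 genes with the largest differences, and defining markers; for Lama1 and Col4a1, the 5 nearest genes. Alternatives were no background correction, an offset of 50, median scaling, the authors' values, detection at 0.05 or on both arrays, 3-fold, averaging the probes of a gene, and each probe on its own.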

Additional observations from a re-analysis of the deposited data

How the results depend on the processing

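The direction of every member difference was kept in all 120 recomputed values (8 members, 3 comparisons and 5 alternative sets of values), and 7 crossed the 2-fold line. These values leave out single probes. Taken singly, the 2 Sparc probes differed in direction between reverted and epiblast cells (log2 −0.26 and 0.12). The second value, of the dimmer probe, is less than 2 bead SE. In reverted against CGR8 cells the count of members past 2-fold, 2 as reported, was 1 without background correction, 1 with an offset of 50 and 1 at 3-fold. In epiblast against CGR8 cells the count of 4 was 2 at 3-fold. In reverted against epiblast cells the total of 3 was 2 or 3; the 1 member counted as lower, Col4a1, was lost without background correction, with an offset of 50 and at 3-fold, and 1 of the 2 counted as higher, Nid1, had no value when detection on both arrays was required. Member medians ran from 0.36 to 0.58 there, from −0.75 to −0.59 in reverted against CGR8 and from −0.92 to −0.63 in epiblast against CGR8 cells, so some moved by more than 1 bead SE. Most sensitive were values from signals near background: Lama1 between epiblast and CGR8 cells was −4.85 on the log2 scale, and −3.27 without background correction, −3.81 with an offset of 50 and −5.81 in the authors' processed values; Nid1 was at least 3.12 lower in that comparison and 1.74 lower without background correction. Scaling to a common median put Lama1 just past 2-fold between reverted and CGR8 cells (−1.01). No replicate could be left out, since each culture has 1 array. No paired analysis was possible because each group has 1 sample. Low signal limits Lamb1, which has no value, and Lama1 and Nid1 in epiblast cells.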

Other observations

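Genes of matrix breakdown were listed as well. Of 19 proteases and inhibitors, 16 were on the array and 10 had a value between reverted and epiblast cells. Among these 10, 2 exceeded 2-fold downward, beside 12.4% of all genes, and 0 upward, beside 12.7%. Their median was −0.03. Mmp2, a gelatinase that cleaves collagen IV, had raw signals of 318.4 in epiblast, 138.7 in reverted and 141.6 in CGR8 cells and was 2.89-fold lower in reverted than in epiblast cells (log2 −1.53, bead SE 0.14). Sulf1, which encodes a sulfatase that edits heparan sulfate, had raw signals of 256.2, 93.4 and 135.0 and was at least 5.51-fold lower (log2 −2.46, with −1.33 without background correction). Mmp14, a membrane-bound protease that activates Mmp2, had raw signals of 287.1, 243.5 and 157.1 and was 2.44-fold higher in reverted than in CGR8 cells (log2 1.29; 0.85 without background correction). Of 9 proteases and inhibitors with a value in that comparison, 1 was at least 2-fold higher, beside 1.81% of all genes, and 0 lower, beside 1.54%. The other 8 were within 2-fold, and the median of the 9 was −0.10.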
